A study of Mus musculus with 6 samples.

Results

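Cytochrome c oxidase, complex IV of the respiratory chain, has nuclear-encoded subunits that exist as paired isoforms, and the transcripts of these isoforms were compared between hearts of hSRY-ON and hSRY-OFF pups. The members were 7 genes, looked for in the expression table under the symbols Cox6a1, Cox6a2, Cox7a1, Cox7a2, Cox7a2l, Cox8a and Cox8b. They were divided into 3 muscle-type isoforms (Cox6a2, Cox7a1 and Cox8b) and the ubiquitous ones. Of the 7 genes, 6 were measured by 7 probes, out of 18138 genes and 25697 probes on the array, and all 7 probes were above background on all 6 arrays. No probe used here had the symbol Cox8a, so its transcript was not analysed. Total RNA came from whole hearts of male FVB mice (FVB/N in the methods) at postnatal day 6, with 3 hearts in each group and 1 Illumina MouseRef-8 BeadChip array for each heart. The hSRY-ON mice carried a single copy of the Signalox-hSRY transgene, recombined by Cre protein that the oocyte of a Ddx4-Cre mother had left in the fertilized egg, so that FLAG-tagged human SRY and EGFP were driven by the CAG promoter throughout the body, and the hSRY-ON mice chosen for the arrays did not themselves carry Ddx4-Cre. The hSRY-OFF mice are defined by the methods as carrying the same transgene without recombination, while the study also describes control littermates without Signalox-hSRY, with or without Ddx4-Cre, so the genotype of the control hearts is uncertain.

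Complex IV passes electrons from cytochrome c to oxygen and pumps protons across the inner mitochondrial membrane. Its catalytic core is encoded by mitochondrial DNA, and the nuclear-encoded subunits around the core include 6a, 7a and 8, each with a form that is abundant in heart and skeletal muscle (called the heart form) and a form found in most tissues (called the liver form). In rodents the heart forms replace the liver forms in the myocardium around and after birth, and Cox7a1 and Cox8b are also abundant in brown fat. Cox7a2l is related to the 7a subunits and helps to join complex IV to complex III in supercomplexes.

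The sequences before the annotated starts are shown for 2 muscle-type and 2 ubiquitous members, since the isoforms of a pair make much the same subunit from separate genes and differ in where they are expressed. They were taken from a set of promoter sequences at starts in the RefSeq annotation of GRCm38.p6. In the set used here 6 of the 7 members had an entry (all except Cox6a2). Each line gives the 250 bases that precede the annotated start, 5′ to 3′ on the strand of the gene, at chr7:30183921-30184170 (plus strand) for Cox7a1, chr7:140900447-140900696 (minus strand) for Cox8b, chr5:115348959-115349208 (minus strand) for Cox6a1 and chr9:79759854-79760103 (minus strand) for Cox7a2. Capitals mark matches to 1 of 5 motifs, searched on both strands.
Cox7a1: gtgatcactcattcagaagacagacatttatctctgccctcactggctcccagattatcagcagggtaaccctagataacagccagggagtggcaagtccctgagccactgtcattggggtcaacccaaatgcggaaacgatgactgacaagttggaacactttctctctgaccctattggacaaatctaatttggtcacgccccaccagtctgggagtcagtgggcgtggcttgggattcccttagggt
Cox8b: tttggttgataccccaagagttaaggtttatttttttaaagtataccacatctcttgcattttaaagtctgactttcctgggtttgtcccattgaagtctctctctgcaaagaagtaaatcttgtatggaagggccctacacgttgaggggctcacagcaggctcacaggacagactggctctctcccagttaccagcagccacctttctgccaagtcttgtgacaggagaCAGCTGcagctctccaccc
Cox6a1: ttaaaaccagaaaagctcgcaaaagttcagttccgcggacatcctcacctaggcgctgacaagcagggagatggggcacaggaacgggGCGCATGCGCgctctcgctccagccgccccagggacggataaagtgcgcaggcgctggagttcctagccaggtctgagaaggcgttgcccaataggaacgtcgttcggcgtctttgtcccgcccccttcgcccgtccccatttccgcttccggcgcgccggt
Cox7a2: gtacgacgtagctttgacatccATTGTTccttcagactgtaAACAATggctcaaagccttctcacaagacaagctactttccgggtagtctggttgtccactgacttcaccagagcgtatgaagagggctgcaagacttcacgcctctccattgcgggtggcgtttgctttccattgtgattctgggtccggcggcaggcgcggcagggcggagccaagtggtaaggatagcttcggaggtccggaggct
Over the 300 bases from 250 before to 50 after the start, the muscle-type genes held the fewest CpG dinucleotides, with 2 in Cox8b and 7 in Cox7a1, against a median of 7 over 32851 annotated promoters of that length. The ubiquitous genes held 32 in Cox6a1, 20 in Cox7a2, 19 in Cox7a2l and 19 in Cox8a. The E-box CAGCTG, a palindrome that muscle regulatory factors can bind, was present in Cox8b at 19 bases before and 17 bases after the start and in none of the other members with an entry, and 16.3% of all promoters held it. TATAAA lay 5 bases after the start of Cox8b, and 13.6% of promoters held it. The core AACAAT, which SRY can bind, matched in Cox7a2 at 2 places, at 228 bases before the start on the opposite strand and at 209 on the gene's strand, and was present in 10.7% of promoters. The palindromic motif of the nuclear respiratory factor NRF1 matched in Cox6a1 at 162 bases before the start and in 0.971% of promoters. AAGGTCA, which estrogen-related receptors can bind, matched in none of the members with an entry and in 4.72% of promoters. These are matches of letters, and binding was not measured.

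To examine the isoforms in the hearts, each array was corrected for its background, the arrays were brought to a common distribution by quantile normalization, and the groups were compared probe by probe. All 3 muscle-type isoforms were lower in the hSRY-ON hearts, Cox7a1 by 2.71-fold, Cox8b by 1.71-fold and Cox6a2 by 1.66-fold. The ubiquitous isoforms did not move together. Cox6a1, the partner of Cox6a2, had no called change, whereas Cox7a2 was 2.20-fold and Cox7a2l 1.35-fold lower. Of the 7 member probes, 5 were differentially expressed, each of them lower in hSRY-ON, where 27.5% of the 12970 tested probes were called, 13.7% lower and 13.8% higher (limma, two-sided, Benjamini-Hochberg adjusted p under 0.05 over all tested probes). Since whole hearts were used, fewer cells of a type and less RNA per cell cannot be told apart. Nothing in the labels says whether the hearts came from separate litters, and the study calls them biological triplicates.

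Cox7a1, the muscle form of subunit 7a, had the largest decrease of the members. In order of replicate number, the control hearts had deposited bead intensities of 28284, 34163 and 20609, and the hSRY-ON hearts had 8667, 7996 and 10471, an order that is kept for all values below. On the normalized log2 scale these were 14.53, 14.83 and 14.54 in hSRY-OFF and 13.16, 12.97 and 13.45 in hSRY-ON. Every hSRY-ON heart was below every hSRY-OFF heart on both scales. The log2 fold change was -1.44 (standard error 0.16, 95% interval -1.82 to -1.06, adjusted p = 0.000966 from limma), and 1.63% of the tested probes had a lower one.

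Cox8b, the muscle form of subunit 8, had intensities of 29600, 30898 and 21365 in the hSRY-OFF hearts and 12299, 14130 and 13894 in the hSRY-ON hearts. The normalized log2 values were 14.63, 14.57 and 14.59 in hSRY-OFF and 13.72, 13.89 and 13.86 in hSRY-ON. The groups were again apart on both scales, and the control hearts were close to each other after normalization (SD 0.033, n = 3). The log2 fold change was -0.77 (standard error 0.11, 95% interval -1.04 to -0.51, adjusted p = 0.00259 from limma).

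Cox6a2, the muscle form of subunit 6a, a subunit through which nucleotides regulate the enzyme, had intensities of 35591, 35406 and 27685 in hSRY-OFF and 15844, 16673 and 18491 in hSRY-ON. The normalized log2 values were 14.94, 14.92 and 14.94 in hSRY-OFF and 14.12, 14.15 and 14.34 in hSRY-ON, with no overlap. Its log2 fold change was -0.73 (standard error 0.12, 95% interval -0.999 to -0.457, adjusted p = 0.00378 from limma). The 3 muscle-type probes lay in the upper range of the arrays, whose highest intensities were 43036 to 48079, and whether their signal was compressed there was not tested. Before normalization, the mean intensity of Cox6a2 was 32894 ± 4512 (SD, n = 3) in hSRY-OFF and 17003 ± 1354 (SD, n = 3) in hSRY-ON.

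**Figure D1:**
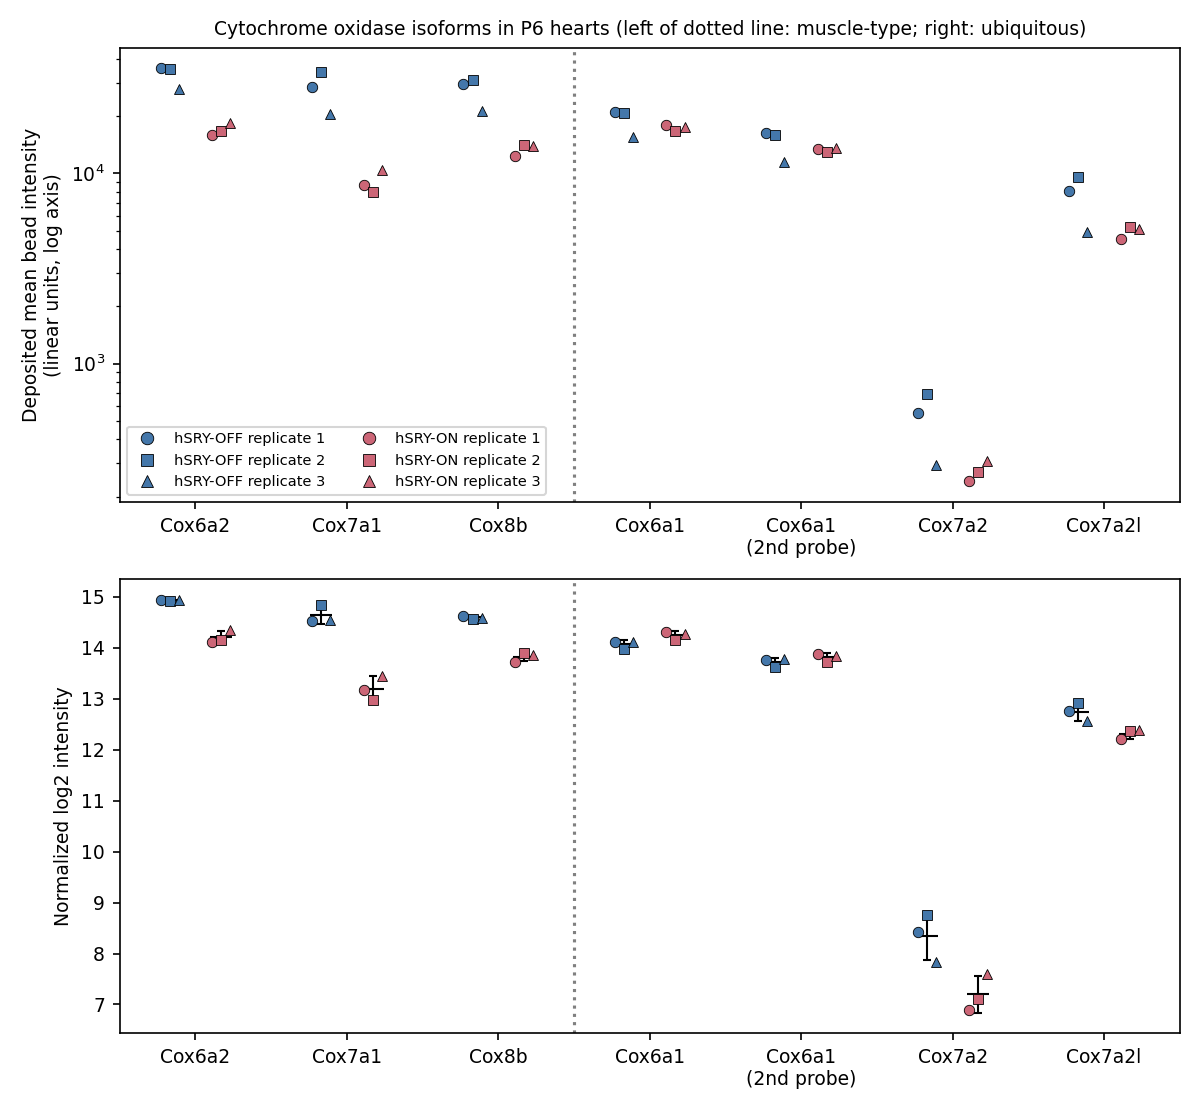
Each point is 1 heart, with the deposited mean bead intensity on a log axis above and the normalized log2 intensity below, for the 7 member probes; bars in the lower panel give the mean and SD of 3 hearts. The 3 muscle-type isoforms are apart between the groups in both panels, while the intensities of the ubiquitous isoforms overlap above.

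Cox6a1, the ubiquitous form of subunit 6a, was measured by 2 probes. For the brighter one the intensities were 20970, 20871 and 15475 in hSRY-OFF and 18022, 16729 and 17615 in hSRY-ON, so that the hSRY-ON hearts lay within the range of the controls. After normalization the values were 14.11, 13.98 and 14.12 in hSRY-OFF and 14.31, 14.16 and 14.27 in hSRY-ON, and every hSRY-ON heart was then above every control. The log2 fold change was 0.18 (standard error 0.11, 95% interval -0.09 to 0.44, adjusted p = 0.291 from limma) and that of the other probe 0.09 (standard error 0.12, adjusted p = 0.597), both uncalled. Without normalization between arrays the sign turned, to -0.12 and -0.11, under a setting in which the median of all tested probes was itself at -0.12.

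Cox7a2, the ubiquitous form of subunit 7a, was measured by a dim probe, with intensities of 550, 692 and 292 in hSRY-OFF and 241, 270 and 309 in hSRY-ON. The dimmest control heart, replicate 3, thus fell inside the range of the hSRY-ON hearts. On the normalized log2 scale the values were 8.43, 8.75 and 7.84 in hSRY-OFF and 6.90, 7.11 and 7.60 in hSRY-ON, which no longer overlapped. The log2 fold change was -1.14 (standard error 0.27, 95% interval -1.76 to -0.52, adjusted p = 0.0176 from limma). The spread between hearts was wide in both groups, with an SD of 0.46 in hSRY-OFF and 0.36 in hSRY-ON (n = 3 each). The call did not survive the removal of either of the first and second hearts of each group (adjusted p of 0.0529 to 0.0585), and without background correction the value was -0.70.

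For Cox7a2l, the supercomplex factor, the intensities were 8089, 9591 and 4915 in hSRY-OFF and 4513, 5218 and 5109 in hSRY-ON, and hSRY-OFF replicate 3 again lay among the hSRY-ON hearts. The normalized log2 values were 12.76, 12.92 and 12.57 in hSRY-OFF and 12.20, 12.36 and 12.39 in hSRY-ON. The log2 fold change was -0.43 (standard error 0.14, 95% interval -0.75 to -0.12), and its adjusted p of 0.0498 from limma was just under the threshold. It passed in 7 of the 17 alternatives tried. Of the 5 called members, Cox7a2 and Cox7a2l were thus the less certain, and the calls of Cox6a2, Cox7a1 and Cox8b were kept in all 17.

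**Figure D2:**
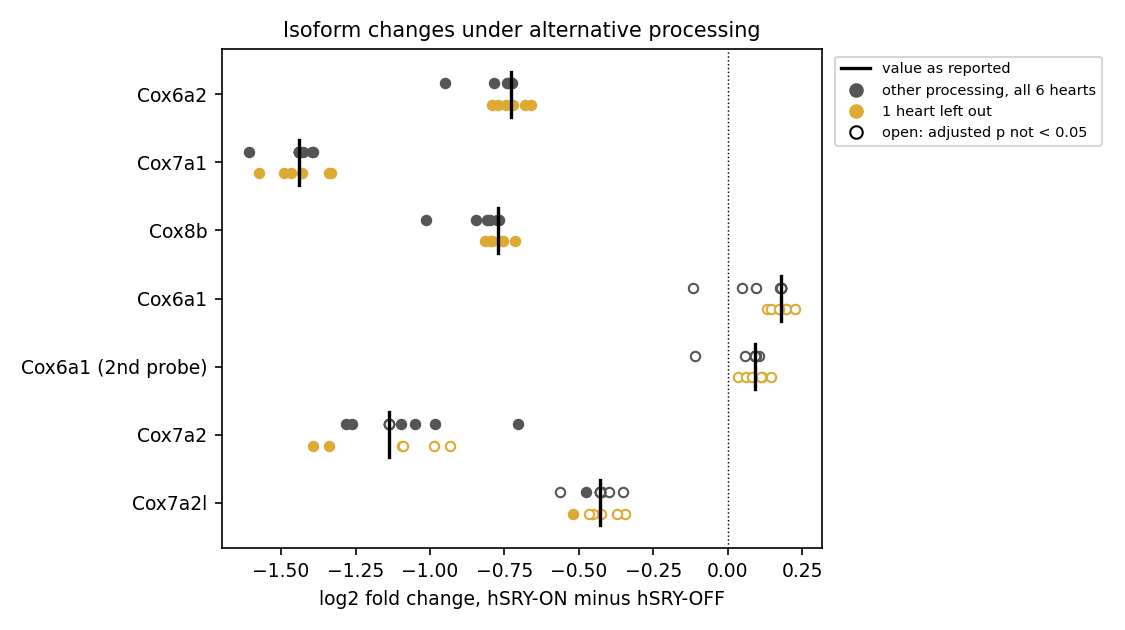
The log2 fold change (hSRY-ON minus hSRY-OFF) of each member probe is shown as reported (black bar), under 11 other ways of processing all 6 hearts (grey) and with 1 heart left out (yellow); open points did not pass the adjusted p threshold. The muscle-type isoforms stay filled and below zero throughout, with Cox7a1 between -1.61 and -1.33, while Cox7a2 and Cox7a2l are open under part of the settings.

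On the normalized scale, all hSRY-ON hearts were below all hSRY-OFF hearts for 5 of the 7 member probes, where this held for 21.6% of the tested probes. With the brighter Cox6a1 probe, which was higher in every hSRY-ON heart, the groups were apart for 6 of the 7, against 45.2% of the tested probes in either direction. The hearts of a group did not deviate alike for all members. Among the controls Cox7a2 and Cox7a2l were both highest in replicate 2 and lowest in replicate 3, while Cox6a2 and Cox8b differed between control hearts by less than 0.1 on the log2 scale. Within the hSRY-ON group, replicate 3 had the highest values of Cox6a2, Cox7a1, Cox7a2 and Cox7a2l. The array of hSRY-OFF replicate 3 was the dimmest, with a mean intensity of 631 over all probes against 723 to 939 on the others. Without that heart the log2 fold changes were -1.39 for Cox7a2 and -0.52 for Cox7a2l.

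To ask whether the isoforms of a pair changed unequally, the normalized log2 value of the ubiquitous isoform was subtracted from that of the muscle-type isoform within each heart. Only the shift of this difference between the groups is read, since the brightness of different probes is not comparable. Cox6a2 minus Cox6a1 was 0.83, 0.94 and 0.83 in hSRY-OFF and -0.19, -0.0049 and 0.074 in hSRY-ON. The groups were apart, and the shift was -0.91 (standard error 0.087), a fall of 1.87-fold in the ratio of the muscle-type to the ubiquitous transcript signal. By an exact two-sided permutation test p was 0.1, the smallest value that 3 hearts against 3 allow, so none of these contrasts could reach 0.05.

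For Cox7a1 the outcome depended on whether it was set against Cox7a2, the ubiquitous form of subunit 7a, or Cox7a2l, the supercomplex factor. Cox7a1 minus Cox7a2 was 6.10, 6.08 and 6.70 in hSRY-OFF and 6.27, 5.86 and 5.85 in hSRY-ON, with overlap between the groups. Its shift of -0.30 (standard error 0.24, exact permutation p = 0.3) was close to the spread between hearts, and both transcripts were lower in hSRY-ON. Without background correction the shift was -0.72 (exact permutation p = 0.1). Cox7a1 minus Cox7a2l was 1.77, 1.92 and 1.98 in hSRY-OFF and 0.96, 0.62 and 1.06 in hSRY-ON, a shift of -1.01 (standard error 0.15, exact permutation p = 0.1) with no overlap. These were the 3 contrasts computed. Cox8b had no partner to be set against.

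**Figure D3:**
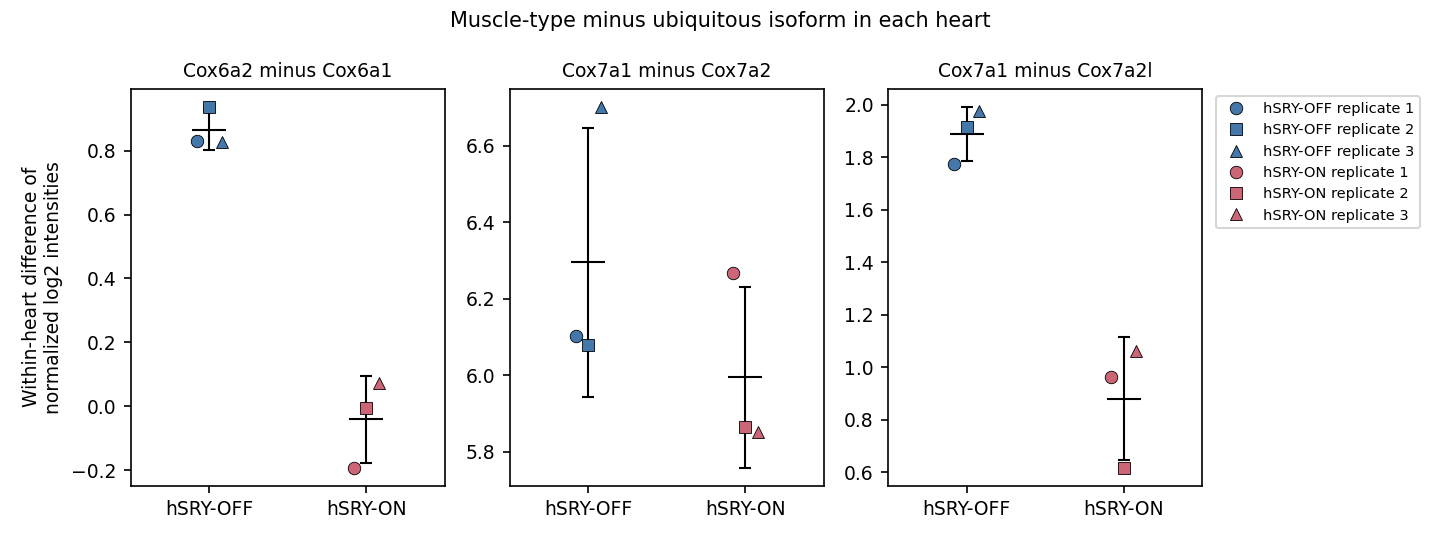
Points are the differences of normalized log2 intensity between a muscle-type isoform and a ubiquitous one within each heart, with the mean and SD of 3 hearts; each panel has its own axis. The hSRY-ON hearts lie below all controls for Cox6a2 minus Cox6a1 and Cox7a1 minus Cox7a2l, and overlap them for Cox7a1 minus Cox7a2.

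The remaining nuclear-encoded subunits of complex IV had smaller changes for the most part. Of 12 genes listed, 9 were tested, and 1 was differentially expressed, Cox6c, a subunit without a known muscle form, which changed by -0.94 on the log2 scale (limma adjusted p = 0.0146, standard error 0.21). At the level of genes, with the brightest probe of each, 28.8% of 9660 tested genes were called, 13.9% lower. A second, dimmer probe of Cox6b1 was called at -0.39 (adjusted p = 0.0369), while the brighter one was not. The median log2 fold change of the 9 subunits was -0.26, and 8 of them were below 0, against a median of 0.0026 over all tested genes. Cox4i1 and Cox4i2, an isoform pair in which Cox4i2 is the form of lung and oxygen-sensing cells, were both uncalled, at -0.32 (standard error 0.11, adjusted p = 0.0705) and -0.41 (standard error 0.21, adjusted p = 0.184). The number of called subunits moved with the processing, from 1 up to 5 with all hearts and from 0 to 2 with 1 heart left out in turn (2 without hSRY-OFF replicate 3 or hSRY-ON replicate 3), and 3 of the 9 had an unadjusted p under 0.05. The call of Cox6c was lost without hSRY-OFF replicate 1 or hSRY-ON replicate 1.

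**Figure D4:**
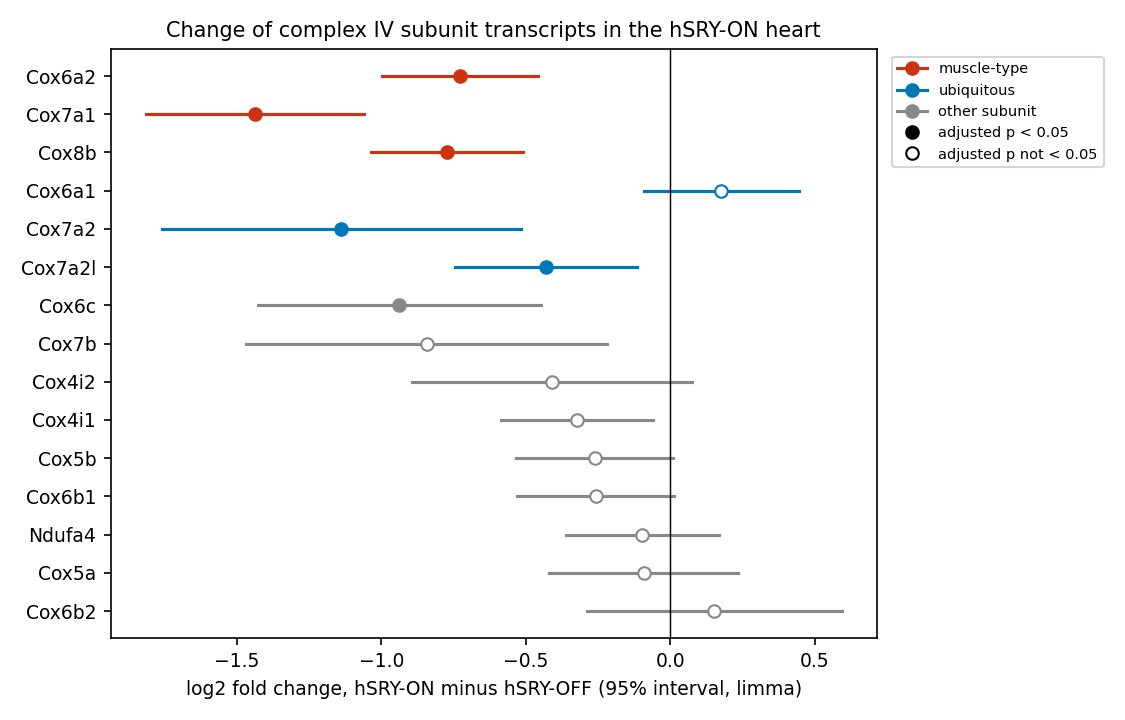
Points give the log2 fold change (hSRY-ON minus hSRY-OFF) with its 95% interval from limma for 6 members and 9 other complex IV subunits, 1 probe per gene; filled points passed an adjusted p of 0.05. The muscle-type isoforms lie between -1.44 and -0.73, Cox6a1 is on the positive side with an interval that includes 0, and among the other subunits Cox6c is filled.

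Complex IV also needs factors that insert its heme and copper and assemble its modules. Of 29 such genes, 24 were on the array, some under an older symbol, and 20 were tested. In hSRY-ON 10 were lower and 1 was higher, where 13.9% of tested genes were called lower and 14.9% higher, and the median log2 fold change was -0.58. The largest decreases were those of 2010305A19Rik (Coa7, an assembly factor of the intermembrane space) at -1.30 (standard error 0.13, adjusted p = 0.000576 from limma), Lrpprc, which stabilizes mitochondrial messenger RNAs, at -1.26 (standard error 0.12), and Cox10, which makes the precursor of heme A, at -1.03 (standard error 0.14). The value of 2010305A19Rik moved with the background correction, to -0.91 with an offset of 50 and to -0.49 without correction, and both are smaller decreases than those of Lrpprc (-1.21 and -1.08) and Cox10 (-1.02 and -0.99) under the same settings. Cox19, a copper-related factor, was higher at 0.61 (standard error 0.14, adjusted p = 0.0153), and this call was lost without normalization between arrays, without either of control replicates 1 and 2, and without hSRY-ON replicate 1. Without normalization between arrays 6 of the factors were called, and without hSRY-OFF replicate 1 or without hSRY-OFF replicate 2 the number was 7.

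Other proteins of the heart with a muscle or mature and a ubiquitous or immature form gave values beside those of the oxidase isoforms. In the creatine kinases, the muscle-type Ckmt2 and Ckm changed by -7.09 and -0.90, both called, while Ckmt1 was at 0.02 and uncalled and Ckb was called higher at 0.43 (adjusted p = 0.0362 from limma). The call of Ckb was lost with any heart left out except hSRY-OFF replicate 3, with scaling on the probes not called (0.34, adjusted p = 0.121) and without normalization between arrays (0.18, adjusted p = 0.806). For myosin, the mature Myh6 changed by -0.51 (by -1.97 on its dimmer probe) and the immature Myh7 by 2.94, and for troponin I the mature Tnni3 changed by -1.13, with Tnni1 at -0.05 and uncalled. The call of the brighter Myh6 probe was lost without normalization between arrays and on removal of either of the first and second hearts of each group. Of the adenine nucleotide translocases, the ubiquitous Slc25a5 was at -0.05 and uncalled. The muscle form Slc25a4 had no probe above background in any heart, and whether its probe reports the transcript was not tested. No test compared these pairs with the oxidase pairs.

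Profiles over the 6 hearts were compared by the root mean square difference of log2 values centred on the mean of the hearts. The genes nearest to the mean profile of the 3 muscle-type isoforms were sought among the 9657 other tested genes, leaving out the ubiquitous members. They were Mrps18a, a mitochondrial ribosomal protein, at a difference of 0.051, Ndufs8, an iron-sulfur subunit of complex I, at 0.055, Dlst, a subunit of the oxoglutarate dehydrogenase complex, at 0.058, Cyc1, cytochrome c1 of complex III, at 0.061, and Psme1, a proteasome activator subunit, at 0.062. Their log2 fold changes ran from -0.97 in Cyc1 to -0.88 in Psme1. The profiles share the arrays and their normalization, and the likeness is dominated by the difference between the groups.

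Markers of the cell types that a heart sample can hold were set beside these results, as the sum of normalized intensities over each list. Of 11 cardiomyocyte markers on the array, 10 were above background in all hearts, as the labelled tissue would have, and 5 were called lower in hSRY-ON, where 13.9% of tested genes were. Their summed level was 220215 to 236601 in hSRY-ON and 241789 to 253102 in hSRY-OFF. For brown fat, which also uses Cox7a1 and Cox8b, the summed level of 10 markers was 2220 to 4093 in hSRY-ON and 2759 to 4177 in hSRY-OFF. The defining brown fat gene Ucp1 had normalized log2 values of 4.64, 5.03 and 8.88 in hSRY-OFF, where it was above background in replicate 3 only, and of 10.81, 8.80 and 9.94 in hSRY-ON. Ucp1 was called higher at 3.67 (standard error 1.07, adjusted p = 0.0395 from limma), apart between the groups in deposited intensity and overlapping after normalization. This call was lost without the probe filter and with any heart left out except hSRY-OFF replicate 3, and without background correction the value was 2.14. Cidea, a lipid droplet protein of brown fat that was above background in all hearts, lay the other way, at 10.80, 10.95 and 11.001 in hSRY-OFF and 10.54, 8.94 and 10.11 in hSRY-ON. Its groups did not overlap, and its log2 fold change of -1.05 was uncalled (adjusted p = 0.0691). Adipoq, the adipocyte hormone adiponectin, was called higher at 1.48 (adjusted p = 0.0265 from limma). Of the 5 brown fat markers tested, 2 were thus called higher and the other 3 were uncalled, where 14.9% of tested genes were called higher. Cidea and Ppargc1a made up most of the summed level of this list in hSRY-OFF. Ppargc1a was uncalled, at -0.63 (limma adjusted p = 0.209). The skeletal muscle list summed to 625 to 838 in hSRY-ON and 3454 to 5034 in hSRY-OFF. Of its 6 tested genes 4 were called lower and 1 higher, where 13.9% of tested genes were called lower and 14.9% higher. Most of the summed level in hSRY-OFF came from 1 gene, skeletal actin, Acta1. This gene was called lower at -3.25, with normalized log2 values of 12.14, 11.61 and 11.45 in hSRY-OFF and 8.96, 7.93 and 8.56 in hSRY-ON. Of the myosins of that list, Myh8 was above background in all hearts and called lower at -1.42 (limma adjusted p = 0.0146) on its brighter probe. The dimmer Myh8 probe was uncalled, at -0.41 (limma adjusted p = 0.353). Myh1, Myh2 and Myh4 were above background in no heart. Actn3, the fast-fibre actinin, was called higher (adjusted p = 0.000716) and was above background in the 3 hSRY-ON hearts and in no control. The macrophage list summed to 6702 to 7551 in hSRY-ON and 3019 to 4044 in hSRY-OFF. In the same order the endothelial list summed to 13476 to 15402 and 12848 to 13375, and the fibroblast list to 28732 to 32034 and 31438 to 33710. Of 7 macrophage genes tested 5 were called higher and 2 were uncalled. Of 6 endothelial genes tested, Eng (0.75) and Emcn (0.53) were called higher, Cdh5 (-0.72) and Tek (-0.45) lower, and 2 were uncalled. Of 7 fibroblast genes tested 1 was called higher and 6 were uncalled. Among all tested genes 14.9% were called higher and 13.9% lower. The erythroid list (50779 to 55444 in hSRY-ON and 48997 to 61246 in hSRY-OFF) overlapped between the groups. Most of that sum was Hba-a1, on average the brightest probe of the arrays, whose normalized log2 values were 15.39 to 15.49 in all hearts. Hbb-b1 was called lower at -1.29 (limma adjusted p = 0.00502), and the other 4 tested erythroid genes were uncalled. The liver list summed to 241 to 281 in hSRY-ON and 66.6 to 86.8 in hSRY-OFF. In the liver list Ttr, the carrier transthyretin, was above background in the 3 hSRY-ON hearts and in no control and was called higher (adjusted p = 0.000378). Apoa1 was above background in 2 hSRY-ON hearts, and Alb and Afp were above background in none. Actn3 and Ttr met the probe filter only through the hSRY-ON hearts, so their adjusted p values set signal against background. The part of these markers in the isoform results was not tested.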

How the data were processed

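Transcript levels were measured in whole hearts of 6 male pups, grouped and numbered by the sample labels. The authors hybridized biotin-labelled cRNA to Illumina MouseRef-8 v2.0 arrays. They deposited a bead intensity for every probe on a linear scale and not normalized. A detection p-value against the negative controls of the array was deposited beside it. Which software averaged the beads is not given in the sources used here. The study names the R package TCC for its own analysis, without settings.

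Processing was done in R 4.3.3 with limma 3.58.1, following the steps of neqc. The normal-exponential background model took its negative controls from the detection p-values, with an offset of 16. Quantile normalization and log2 followed. Probes had to be detected (p-value under 0.05) in 3 or more of the 6 hearts. lmFit and eBayes were run with group as the only term, two-sided, with Benjamini-Hochberg adjustment over 12970 probes and a threshold of 0.05. Of these, 3567 were called. For counts of genes the brightest probe stood for its gene. On single arrays 47.2% to 51.3% of probes were detected, and the number of arrays limits the precision. These steps were tested on simulated data.

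Isoform differences were compared by an exact two-sided permutation test over hearts. Older symbols were matched through RefSeq synonyms (GRCm38.p6). Plots used Python 3.11.15 and matplotlib 3.10.9. The members and lists were chosen with earlier results of these data known. Genes were named by rule: all members, called complex IV subunits with Cox4i1 and Cox4i2, the called assembly factors with the largest increase and the 3 largest decreases, the other isoform pairs, the 5 genes nearest in profile, and from each cell type list the genes needed to describe it. Alternatives were other background corrections, normalizations, filters and variance models, the replicate number as a block, and each heart left out in turn.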

Additional observations from a re-analysis of the deposited data

How the results depend on the processing

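The decreases of Cox6a2, Cox7a1 and Cox8b kept their direction and their call in all 17 alternatives, with log2 fold changes of -0.95 to -0.72, -1.61 to -1.39 and -1.01 to -0.77 while all hearts were kept. Without normalization between arrays, 1897 probes were called in all, 38.5% of them higher in hSRY-ON against 50.1% otherwise, and 2 other complex IV subunits and 6 assembly factors were called. Under that setting Cox6a1 was at -0.12, its second probe at -0.11, Cox7a2l at -0.57 without a call (adjusted p = 0.230 from limma) and the uncalled Ckmt1 at -0.11. Scaling to the median of detected probes raised the share of higher calls to 65.7% and gave Cox7a2l -0.35, scaling on the probes not called gave it -0.40 and leaving out the probe filter -0.43, each without a call, and both scalings in that order put the uncalled Tnni1 at 0.076 and 0.030. Without background correction 5 other subunits were called and Cox7a1 minus Cox7a2 shifted by -0.72, an offset of 50 gave 3 other subunits, an intensity trend 5, and array weights, detection on all 6 arrays and detection at 0.01 gave 2 each. The cause of these changes was not tested.

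With each heart left out in turn, 2206 to 3669 probes, 3 to 5 member probes, 0 to 2 other subunits and 7 to 14 assembly factors were called, and the log2 fold changes ranged from -1.39 to -0.93 for Cox7a2, from -0.52 to -0.35 for Cox7a2l, from -0.22 to 0.24 for Ckmt1 and from -0.28 to 0.094 for Tnni1. The lowest numbers of probes were reached without hSRY-OFF replicate 1 (2206) and hSRY-ON replicate 1 (2255), and 3 member probes remained called without any 1 of the first and second hearts of each group.

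The labels link hearts of the 2 groups by a replicate number only. The deviations of same-numbered hearts from their group means correlated over probes at -0.066 to 0.038. With 3 hearts in a group this cannot decide whether same-numbered hearts were paired, for example as littermates. With the replicate number as a block, 2842 probes and 3 member probes were called, with Cox7a2 at -1.14 (adjusted p = 0.0519) and Cox7a2l at -0.43 (adjusted p = 0.0887, limma), and the calls of Ckb (adjusted p = 0.0739) and of the brighter Myh6 probe (adjusted p = 0.0530) were lost. The paired isoform contrasts under that block cannot go below an exact p of 0.25.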
